A study of Mus musculus with 8 samples.

Results

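The type 2 cytokine genes Il4, Il5 and Il13, the transcription factor gene Gata3 and the receptor gene Il1rl1 were followed in bone marrow T cells of mice with and without the leukemia fusion Runx1::Runx1t1. They are 5 of the 32285 genes counted and were matched by symbol in all 4 gene expression libraries. They were chosen by symbol as a group of related genes with their measured levels and group differences in these data already known, so these are described and not offered as independent evidence. Droplet 5′ single-cell sequencing read the transcripts and, for the same droplets, the chains of the T cell receptor (TCR), in 8 libraries from 4 pools of cells. The Runx1::Runx1t1 group held Runx1Runx1t1/+; Mx1-Cre mice and the control group their sex-matched Runx1Runx1t1/+ littermates without Mx1-Cre, all of strain C57BL/6, and the sample labels call the control genotype WT. Poly(I:C), which mimics viral RNA and switches on Mx1-Cre in many cell types through interferon, was injected 4 times into the mice of both groups (5 mg/kg each), and the mice were sacrificed 4 weeks after induction. Each group had 2 pools (replicate 1 and replicate 2) of 2 mice, so that mice within a pool cannot be told apart and n = 2 pools per group throughout. The sorted cells were live CD3+ and lacked mCherry, the reporter of the fusion gene.

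Interleukin 4, interleukin 5 and interleukin 13 are the cytokines of type 2 immunity, which acts against worms and drives allergy. Gata3 is the factor that T helper 2 cells need to open their shared cytokine locus, and it is also used in T cell development, by regulatory T cells and by innate lymphoid cells. Il1rl1 encodes ST2, the receptor of the alarmin interleukin 33, and is known in T helper 2 cells, in tissue-type regulatory T cells, in innate lymphoid cells and in mast cells. Invariant natural killer T cells, which carry a TCR alpha chain of TRAV11 and TRAJ18, are known to hold Il4 transcripts before they are stimulated.

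After filters 52924 of 56649 barcodes were kept, with 90958101 to 102883449 counted transcripts (UMIs, unique molecular identifiers) per library, and pairs of libraries shared 226 to 263 barcodes. Each cell was put in 1 class by its transcripts and TCR contigs. The classes held 6903 Cd4 cells, of which 1484 had a Foxp3 UMI, 26668 Cd8 cells, 1689 cells with both co-receptors, 12931 co-receptor-negative T cells, 1746 TRAV11-TRAJ18 T cells and 2987 cells with neither a Cd3 UMI nor a TCR contig, called cells without T cell evidence. Zbtb16, the defining factor of invariant natural killer T cells, had a UMI in 32.5 to 46.3% of TRAV11-TRAJ18 cells per pool and in 0.669 to 1.45% of Cd8 cells. Neutrophil granule transcripts, which T cells lack, were at 550 and 119 CPM (UMIs of the gene per 1000000 UMIs) in the T cells of control replicates 1 and 2 and at 1.81 and 2.94 CPM in those of the Runx1::Runx1t1 group, and the part of free RNA in the results was not tested. Runx1t1, the partner gene of the fusion, had 15 and 37 UMIs in control replicates 1 and 2 and 100 and 107 UMIs in Runx1::Runx1t1 replicates 1 and 2.

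Il4, Il13 and Il5 lie in 1 locus on chromosome 11, and Il4 and Il13 are neighbors on the minus strand. In the GRCm38 annotation (GENCODE M21) Il13 spans chr11:53631324-53634702, Il4 spans chr11:53602982-53618669, Il5 spans chr11:53720794-53725106, Gata3 spans chr2:9857078-9890034 and Il1rl1 spans chr1:40429570-40465415. The 250 bases before the start sites of all 5 genes were taken from RefSeq (GRCm38.p6) and searched on both strands for the letters GATA, which on the other strand read TATC, since Gata3 and related factors bind sites with this core. These letters stood at least once in 53.6% of all 32851 promoter windows of this length and at least 6 times in 0.338%. The windows of 3 genes that the results turn on are shown, 5′ to 3′ on the gene's strand and with the matched letters in capitals. They are those of Il4 (chr11:53618666-53618915, with no match), Il13 (chr11:53634703-53634952, with 1 match that lies 80 bases before the start) and Il1rl1 (chr1:40429320-40429569, with 6 matches).
Il4 promoter: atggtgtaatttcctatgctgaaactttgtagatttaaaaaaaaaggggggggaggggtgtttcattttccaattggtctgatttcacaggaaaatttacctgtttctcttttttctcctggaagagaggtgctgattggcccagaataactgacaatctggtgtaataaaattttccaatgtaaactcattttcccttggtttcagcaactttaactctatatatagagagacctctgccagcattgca
Il13 promoter: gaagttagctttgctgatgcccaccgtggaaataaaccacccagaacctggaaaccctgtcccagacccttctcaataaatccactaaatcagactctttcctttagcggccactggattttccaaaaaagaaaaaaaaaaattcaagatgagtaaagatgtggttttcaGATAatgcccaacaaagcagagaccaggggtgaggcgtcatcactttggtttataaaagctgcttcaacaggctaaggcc
Il1rl1 promoter: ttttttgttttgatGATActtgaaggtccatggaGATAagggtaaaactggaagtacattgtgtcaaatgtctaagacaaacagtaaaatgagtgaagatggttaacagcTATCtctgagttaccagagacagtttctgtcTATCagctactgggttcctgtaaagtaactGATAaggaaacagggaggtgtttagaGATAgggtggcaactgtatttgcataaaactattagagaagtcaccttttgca
The window of Il5 held 1 match, that of Gata3 none, a second start of Il4 held 3 and a second start of Il1rl1 held 2. A match describes the letters only.

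TRAV11-TRAJ18 T cells held more Il4 UMIs than any other class in both groups, and in the Runx1::Runx1t1 group most Il4 UMIs lay outside them. Il4 had 1867 UMIs in 1038 cells. TRAV11-TRAJ18 cells were 3.30% of all cells and held 52.0% of the Il4 UMIs, followed by Cd4 cells without Foxp3 (17.6%) and co-receptor-negative cells (14.6%). In the control group the TRAV11-TRAJ18 cells held 66.1% of the Il4 UMIs and Cd4 cells without Foxp3 6.07%, while in the Runx1::Runx1t1 group these shares were 40.8% and 26.7%. In Runx1::Runx1t1 replicate 2 the TRAV11-TRAJ18 cells held 113 of 348 Il4 UMIs. These splits follow the number of cells in a class as well as the transcripts in each cell. The control pools had 533 and 535 TRAV11-TRAJ18 cells and the Runx1::Runx1t1 pools 462 and 216, and the Cd4 cells were 1075 and 978 against 2489 and 2361.

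**Figure D1:**
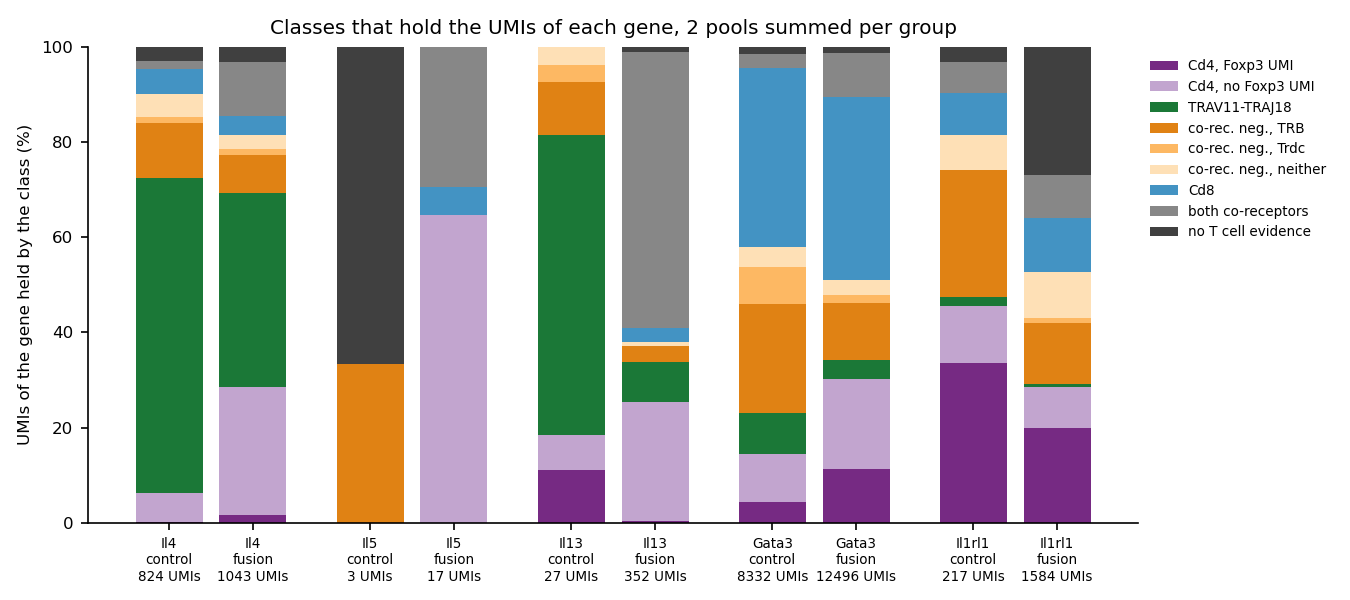
Stacked bars give, for each gene and group (fusion stands for the Runx1::Runx1t1 group), the percent of the gene's UMIs that each class of cells held, with the 2 pools of a group summed and the number of UMIs under the bar. TRAV11-TRAJ18 cells held 66.1% of the Il4 UMIs of the control group, and cells with both co-receptors 58.0% of the Il13 UMIs of the Runx1::Runx1t1 group.

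Per cell, the TRAV11-TRAJ18 class did not separate the groups. An Il4 UMI was found in 31.3% (95% Wilson interval 27.5 to 35.4%) and 29.2% (25.5 to 33.1%) of the TRAV11-TRAJ18 cells of control replicates 1 and 2, and in 33.5% (29.4 to 38.0%) and 29.2% (23.5 to 35.6%) of those of Runx1::Runx1t1 replicates 1 and 2. All intervals here cover counting error only. The groups overlapped, with a difference of 1.11 percentage points and p = 0.667 in the two-sided exact permutation test, which with n = 2 pools against 2 cannot give a p under 0.333. The Runx1::Runx1t1 cells of this class were deeper, with medians of 6572.5 and 6432 UMIs against 5474 and 5278, and after each cell was thinned to 2000 UMIs the shares were 14.99% and 16.6% in the control group and 15.6% and 14.0% in the Runx1::Runx1t1 group. In every pool this share was above that of Cd8 cells, which had an Il4 UMI in 0.182 to 0.294% of cells at a median of 7034 UMIs per cell. Cells of 1 library share their free RNA, and the Cd8 share was taken as the background of the measurement.

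The alpha chains of these cells differ by few bases. Among 39 distinct nucleotide sequences of the CDR3, the part of the chain that meets the antigen, the 3 most frequent differed at 1 base, position 12 from the 5′ end, shown in capitals because the TCR defines this class.
variant 1: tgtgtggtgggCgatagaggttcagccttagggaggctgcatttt
variant 2: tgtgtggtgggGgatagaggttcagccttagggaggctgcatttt
variant 3: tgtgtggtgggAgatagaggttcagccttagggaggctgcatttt
Against variant 1 (622 cells, 35.6% of the class), variant 2 (511 cells, 29.3%) carries the base change C12G and variant 3 (251 cells, 14.4%) the base change C12A. All 3 bases at this position give a codon for glycine, so the 3 variants encode the same CDR3 protein sequence. Comparing Il4 between these variants therefore cannot show an effect of the receptor protein. Il4 was found in 30.7% of cells with variant 1 (27.2 to 34.4%), 30.7% with variant 2 (26.9 to 34.9%), 34.7% with variant 3 (29.0 to 40.7%) and 29.3% with any other sequence (24.8 to 34.2%), so these intervals overlapped. By the TCR beta chain, Il4 was in 37.0% of cells with TRBV1 (29.4 to 45.3%), in 32.1% with TRBV13 (29.5 to 34.9%) and in 27.5% with TRBV29 (23.0 to 32.6%). By co-receptor, it was in 36.5% of TRAV11-TRAJ18 cells with a Cd4 UMI (31.8 to 41.6%), in 30.02% with neither co-receptor (27.5 to 32.7%) and in 25.2% with a Cd8 UMI (18.9 to 32.6%). These splits pool cells of all 4 pools and carry no test. The 538 Il4-positive cells of the class with a full clonotype (a pair of alpha and beta CDR3 sequences) belonged to 538 different clonotypes, and no clonotype held more than 1 of them.

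Cd4 cells without Foxp3 were the second source of Il4, and here the pools of a group differed. An Il4 UMI was found in 8 of 859 of these cells (0.931%, 0.473 to 1.83%) in control replicate 1 and in 26 of 759 (3.43%, 2.35 to 4.97%) in control replicate 2. In the Runx1::Runx1t1 group it was found in 91 of 1912 (4.76%, 3.89 to 5.81%) in replicate 1 and 36 of 1889 (1.91%, 1.38 to 2.63%) in replicate 2. The groups overlapped, since control replicate 2 lay above Runx1::Runx1t1 replicate 2. Positive cells held on average 2.04 UMIs, against 1.79 in TRAV11-TRAJ18 cells and 1.31 in Cd8 cells. Among Cd4 cells with Foxp3, Il4 was found in 0, 1, 6 and 3 cells of the control and then the Runx1::Runx1t1 replicates, where 0 of 216 cells allows a share of up to 1.39%.

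Some genes, chosen after their values were seen, were more frequent in the Il4-positive than in the Il4-negative Cd4 cells without Foxp3. Of these 161 cells, 13.04% had Zbtb16 against 1.54% of the negative cells, 44.7% had Xcl1, a chemokine gene of cytotoxic and natural killer T cells, against 14.7%, and 53.4% had Ifng, the type 1 cytokine gene, against 37.3%. Il10 was found in 18.6% of them against 9.51%, and Il1rl1 in 16.1% against 1.52%. The positive cells were deeper, with a median of 6257 UMIs against 5078. Over all Cd4 cells, with and without Foxp3 and each thinned to 2000 UMIs, Xcl1 was found in 33.5% of Il4-positive and 8.15% of Il4-negative cells. The difference ran from 12.2 to 66.1 percentage points over the 4 pools, some with few positive cells. Since TRAV11-TRAJ18 cells are recognized by their alpha contig, cells whose alpha chain was not read can be among the other classes. Il4 was found in 133 of 5604 Cd4 cells with an alpha contig (2.37%) and in 38 of 1299 without one (2.93%). Of the Il4-positive Cd4 cells with an alpha contig, Zbtb16 was in 1 of 4 and 8 of 24 in control replicates 1 and 2. In Runx1::Runx1t1 replicates 1 and 2 it was in 5 of 82 and 2 of 23. Without an alpha contig it was in 3 of 4 and 0 of 3 against 2 of 15 and 2 of 16. The Zbtb16 share pooled over all pools, given above, thus differed by pool. In co-receptor-negative cells Il4 was found in 72 of 6597 with an alpha contig (1.09%) and in 103 of 6334 without one (1.63%). Zbtb16 was found in 30.6% of the Il4-positive cells with an alpha contig and in 39.8% of those without one. In control replicate 2 this order was turned, at 45.0% with and 25.0% without one. How many of these cells were unread TRAV11-TRAJ18 cells was not tested.

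**Figure D2:**
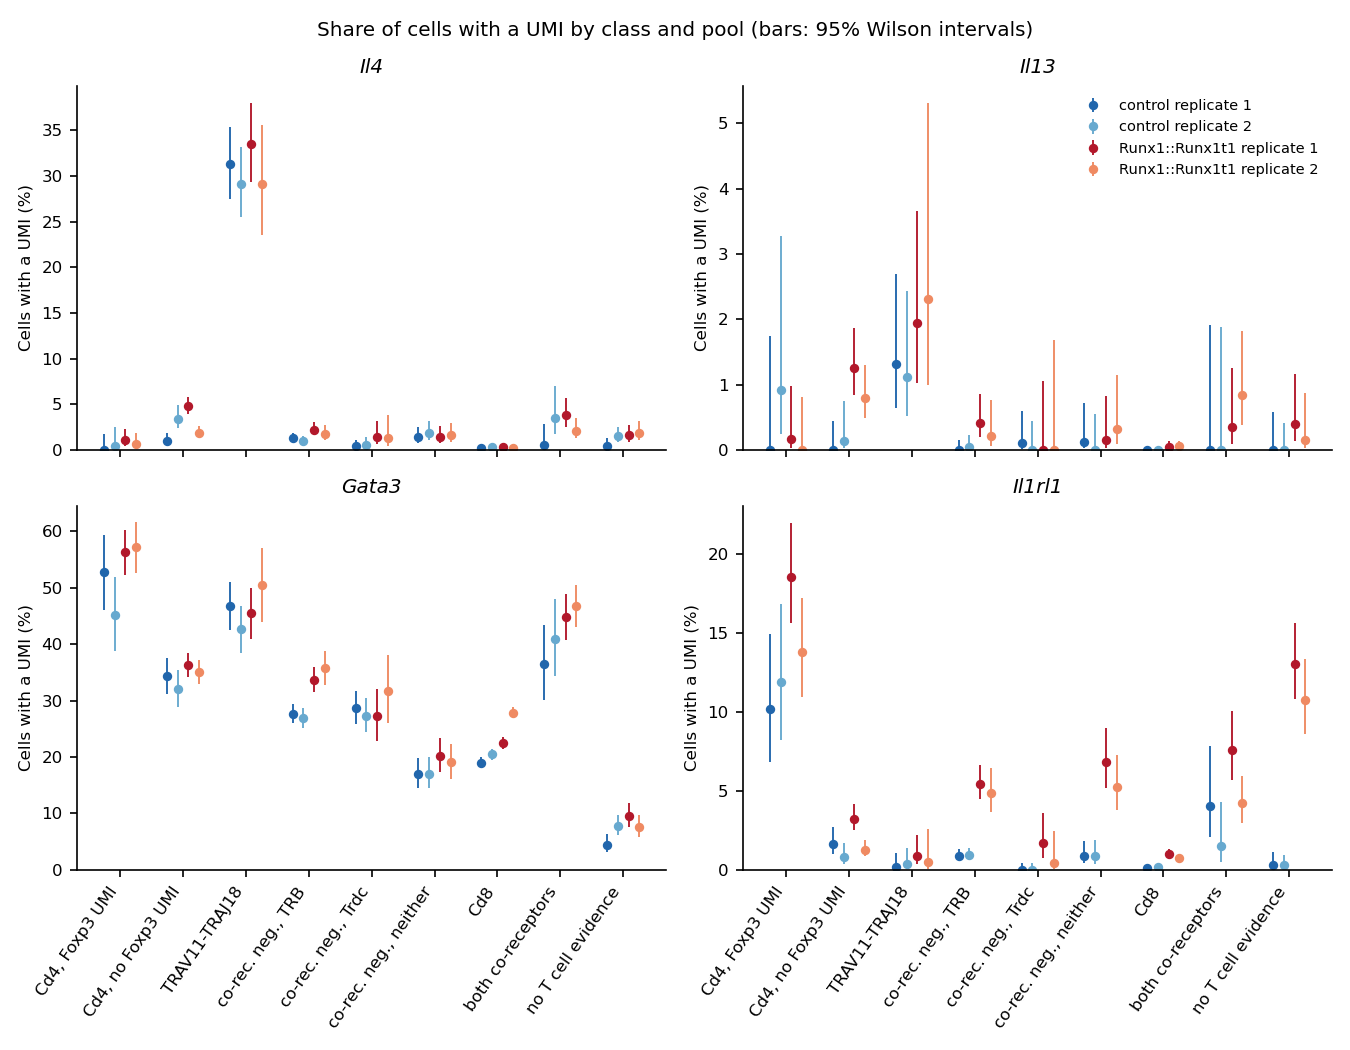
Each point is the percent of cells of a class (horizontal axis) with at least 1 UMI of the gene in 1 pool, with its 95% Wilson interval, for Il4, Il13, Gata3 and Il1rl1. Il4 stands at 29.2 to 33.5% in TRAV11-TRAJ18 cells in all 4 pools, and Il1rl1 stands higher in both Runx1::Runx1t1 pools than in both control pools among co-receptor-negative cells.

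Il4 was spread over many clonotypes outside the TRAV11-TRAJ18 class too. There, 271 positive cells with a clonotype fell into 236 clonotypes, of which 19 held 2 or more positive cells. The clonotype with the most positive cells, in Runx1::Runx1t1 replicate 2, used TRAV19 and TRAJ57 with TRBV3 and TRBJ1-2. It had 120 cells, of which 112 held Cd4 and none Foxp3, and 8 of the 120 (6.67%) held 26 Il4 UMIs, while 35 held Gata3 and 2 held Il13. A clonotype of 25 cells in Runx1::Runx1t1 replicate 1 carried the same alpha CDR3 with another beta chain and had 2 Il4-positive cells. Unlike the first, it had 12 cells with Foxp3. In 2 clonotypes of Runx1::Runx1t1 replicate 1, of 3 cells each, every cell held both Il4 and Il1rl1. The first used TRAV4D-3 and TRBV13-3 and held 12 Il4 and 10 Il1rl1 UMIs, and the second used TRAV7N-6 and TRBV29 and held 10 and 8. In control replicate 2, clonotypes of 22 cells (5 positive) and 9 cells (4 positive) had different alpha chains and 1 beta chain. Of the 31 cells with this beta chain, 20 carried both alpha chains, 7 only the first and 4 only the second, so the pair of clonotypes can be counted as 1. The 3 chains are shown because they tie these cells together.
TRAV19 alpha chain of both Runx1::Runx1t1 pools: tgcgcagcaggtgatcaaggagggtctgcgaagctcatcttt
beta chain of control replicate 2: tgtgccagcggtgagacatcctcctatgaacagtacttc
first alpha chain of control replicate 2: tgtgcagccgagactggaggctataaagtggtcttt

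Il13 had few UMIs in most cells and very many in a handful. It was counted in 104 cells with 379 UMIs, 70.2% of these cells had 1 UMI, and 3 cells held 47.8% of all UMIs. In T cells Il13 had 10 UMIs in 9 cells and 17 UMIs in 10 cells of control replicates 1 and 2, and 111 UMIs in 47 cells and 237 UMIs in 34 cells of Runx1::Runx1t1 replicates 1 and 2. Both Runx1::Runx1t1 pools were above both control pools in cells and in UMIs. The 3 cells with the most Il13 were all in Runx1::Runx1t1 replicate 2 and had both co-receptors, with 81, 65 and 35 Il13 UMIs among 23745, 11729 and 10622 UMIs in all. They held 34.0%, 27.3% and 14.7% of the Il13 UMIs of that pool. The first also had 50 Il4 UMIs, the most of any cell, and 62 Ifng UMIs.

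Cells with 2 co-receptors and this many UMIs can be single cells or droplets with more than 1 cell, and the values do not tell these apart. Their class had medians of 7451 to 8172 UMIs per pool, above those of Cd4 cells (4469.5 to 5462). All 8 Il13-positive cells with both co-receptors held Ifng. The third of the 3 cells belonged to a clonotype of 5 cells (TRAV14-1 and TRAJ34 with TRBV2 and TRBJ2-7), in which a Cd4 cell without Foxp3 held 5 Il13 UMIs. Without the 3 cells, the T cells of Runx1::Runx1t1 replicate 2 held 56 Il13 UMIs (0.627 CPM), against 1.21 CPM in replicate 1 and 0.126 and 0.201 CPM in the control pools.

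In Cd4 cells without Foxp3, Il13 was found in 0 of 859 cells of control replicate 1, which allows a share of up to 0.349%, and in 1 of 759 (0.132%, 0.0233 to 0.742%) of control replicate 2. It was found in 24 of 1912 (1.26%, 0.845 to 1.86%) and 15 of 1889 (0.794%, 0.482 to 1.31%) of these cells in Runx1::Runx1t1 replicates 1 and 2, above both control pools. TRAV11-TRAJ18 cells held Il13 in every pool, in 7 and 6 cells of the control group (1.31% and 1.12%) and 9 and 5 cells of the Runx1::Runx1t1 group (1.95% and 2.31%). Among Cd8 cells it was found in 0, 0, 3 and 4 cells in the same order.

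Il4 was found in 35.0% of the T cells with Il13, against 2.00% of all T cells, and Il13 in 3.51% of those with Il4. Of 997 T cells with Il4 and 100 with Il13, 35 held both, 4 and 3 of them in the control pools and 19 and 9 in the Runx1::Runx1t1 pools. Among these 35 were 14 TRAV11-TRAJ18 cells, a class in which 51.9% of Il13-positive cells and 31.0% of all cells held Il4. Of the 40 Il13-positive Cd4 cells without Foxp3, 37.5% held Il10, an anti-inflammatory cytokine gene, against 9.57% of the negative cells, and 42.5% held Ifng against 37.7%. The positive cells had a median of 7569 UMIs against 5092. The clonotype with the most Il13-positive cells was in Runx1::Runx1t1 replicate 1 (TRAV14-2 and TRAJ9 with TRBV10 and TRBJ1-1), with 4 positive of 136 cells, of which 43 held Gata3.

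**Figure D3:**
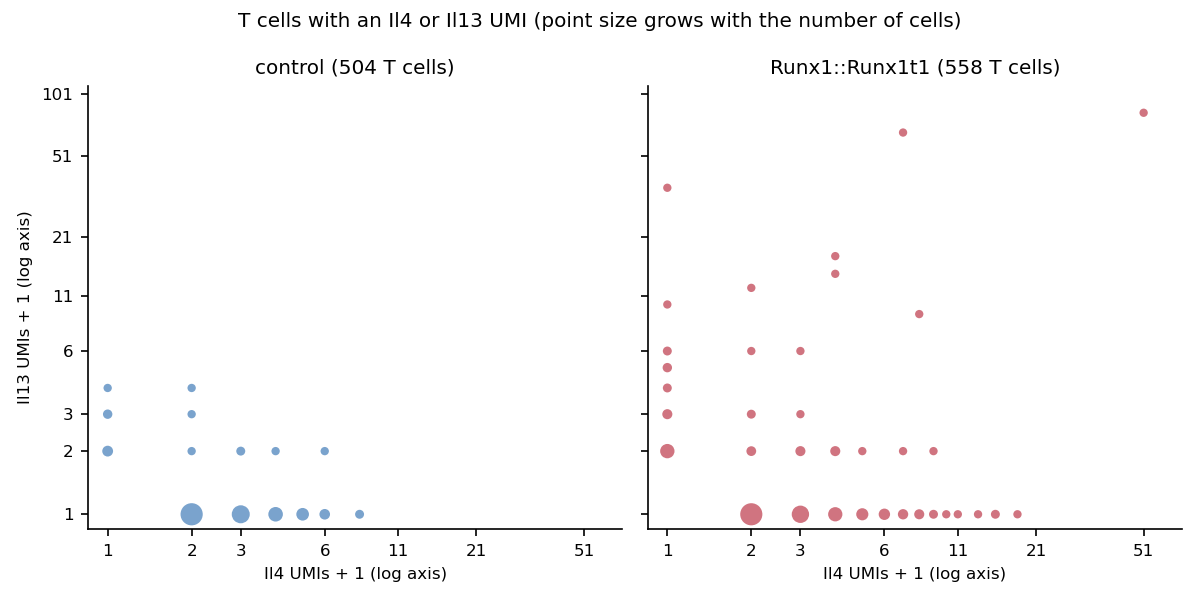
Each point is a pair of Il4 and Il13 UMI counts (plus 1, both axes logarithmic) found in 1 or more T cells, with larger points for more cells, for the Runx1::Runx1t1 group and the control group. Cells with more than 3 Il13 UMIs occurred in the Runx1::Runx1t1 panel and not in the control panel, and the highest cell held 81 Il13 and 50 Il4 UMIs.

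Il5, the cytokine gene of eosinophil growth, was rarely detected at this depth. It had 20 UMIs in 11 cells, 2 of them in the control group, and too few UMIs to pass the low-count filter of the main tests in any class. Of the 10 T cells with Il5, 6 held Il4 and 9 held Gata3. Of these, 6 were Cd4 cells without Foxp3, 4 and 2 of them in Runx1::Runx1t1 replicates 1 and 2, and all 6 held Gata3. Of these 6 cells, 5 held Il4 and 66.7% held Pparg, a factor of T helper 2 cells that was picked after its value was seen. In their class 34.9% of cells held Gata3 and 2.97% held Il4. The 6 cells had 5543 to 16046 UMIs, against a class median of 5100. No Il5 UMI was found in 859 and 759 Cd4 cells without Foxp3 of the control pools, which allows shares of up to 0.349% and 0.395%. In 1 clonotype of 5 cells in Runx1::Runx1t1 replicate 1 (TRAV16N and TRAJ37 with TRBV26 and TRBJ2-4), 2 cells held Il5 and 2 held Il4. Of its 5 cells, 2 held Cd4 and 3 held Cd8, and the Il5-positive cells were 1 Cd4 cell without Foxp3 and 1 Cd8 cell.

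Gata3 was found in every T cell class. It had 20828 UMIs in 13988 cells (26.4%). Cd8 cells, which held 4.55% of the Il4 UMIs and 2.64% of the Il13 UMIs, held 38.1% of the Gata3 UMIs. The highest shares of cells with Gata3 were in Cd4 cells with Foxp3, at 52.8% and 45.2% in control replicates 1 and 2 and 56.3% and 57.2% in Runx1::Runx1t1 replicates 1 and 2. TRAV11-TRAJ18 cells followed with 46.7% and 42.6% against 45.5% and 50.5%, and their intervals overlapped with those of Cd4 cells with Foxp3 in every pool but Runx1::Runx1t1 replicate 1. Cd4 cells without Foxp3 stood at 34.3% and 32.0% against 36.3% and 35.0%, and Cd8 cells at 19.0% and 20.5% against 22.5% and 27.9%.

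Within the co-receptor-negative class, the cells with a beta contig held Gata3 in 27.6% and 26.9% of cells in the control pools and in 33.7% and 35.7% in the Runx1::Runx1t1 pools. Those with a Trdc UMI, the gamma-delta lineage gene, held it in 28.7% and 27.3% against 27.2% and 31.7%, so the groups overlapped there. Cells without T cell evidence held Gata3 in 4.43 to 9.55% of cells. Reads of Gata3 may be shared with overlapping genes, and the 3 such genes in the annotation had 185, 44 and 19 UMIs.

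Il1rl1 had another distribution than the cytokines. It had 1801 UMIs in 1015 cells, and the largest share was held by Cd4 cells (30.6%), followed by co-receptor-negative cells (24.9%) and cells without T cell evidence (24.0%). Cd4 cells with Foxp3, which were 2.80% of all cells, held 21.6%, and those without Foxp3 9.05%. TRAV11-TRAJ18 cells held 0.666% of the Il1rl1 UMIs. Among Cd4 cells with Foxp3 it was found in 22 of 216 (10.2%, 6.82 to 14.9%) and 26 of 219 (11.9%, 8.23 to 16.8%) of the control pools, and in 107 of 577 (18.5%, 15.6 to 21.9%) and 65 of 472 (13.8%, 10.95 to 17.2%) of the Runx1::Runx1t1 pools. Both Runx1::Runx1t1 pools were higher, and the interval of control replicate 2 overlapped those of both. Genes chosen after their values were seen differed between positive and negative cells of this class. Klrg1 was found in 68.2% against 29.1%, Areg, a growth factor gene of tissue repair, in 69.5% against 42.3%, and Gata3 in 71.8% against 51.4%. Their median depth was 5563 UMIs against 4740. In Cd4 cells thinned to 2000 UMIs, Foxp3 and Klrg1 were the genes with the largest differences between Il1rl1-positive and Il1rl1-negative cells, by means of 39.5 (32.8 to 47.3 by pool) and 39.3 percentage points (26.4 to 57.1).

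The 106 Il1rl1-positive Cd4 cells without Foxp3, 86 of the Runx1::Runx1t1 group and 20 of the control group, held another set. Of these, 24.5% had Il4 against 2.54% of the negative cells, 27.4% had Il9r against 2.88%, 17.9% had Pparg against 0.772% and 13.2% had Nmur1, a neuropeptide receptor gene of type 2 innate lymphoid cells, against 0.0941%. Il2ra, the high-affinity receptor chain of interleukin 2, was found in 44.3% against 5.55%. Among clonotypes, the most Il1rl1-positive cells in number (9) were in a Cd8 clonotype of 1104 cells in Runx1::Runx1t1 replicate 2. This is 0.815% of its cells, against 0.727% of all Cd8 cells of that pool, and 10 of its 23 Il1rl1 UMIs were in 1 droplet that also held 107 Cpa3 and 9 Kit UMIs. The next was a clonotype of 18 cells in Runx1::Runx1t1 replicate 1 (TRAV5D-4 and TRAJ22 with TRBV12-1 and TRBJ2-3), of which 15 held Foxp3, 15 Gata3 and 7 Il1rl1.

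In co-receptor-negative cells, the Il1rl1 share separated the groups. It was found in 30 of 4330 (0.693%) and 30 of 4082 (0.735%) cells of the control pools, and in 144 of 2718 (5.30%) and 80 of 1801 (4.44%) of the Runx1::Runx1t1 pools. Both Runx1::Runx1t1 pools were above both control pools, although their cells were shallower (medians of 4735.5 and 4767 UMIs against 5897 and 5959.5). Of the 284 positive cells, 165 (58.1%) held Foxp3, and the share of co-receptor-negative cells with Foxp3 moved with the group, at 4.32% and 5.41% in the control pools and 16.9% and 14.2% in the Runx1::Runx1t1 pools. Cd4 transcripts are sparse, so a cell of the Cd4 lineage without a Cd4 UMI falls into this class.

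Mast cell and basophil transcripts moved with the group as well. The list of 8 such genes summed to 5.27 and 14.7 CPM in the co-receptor-negative cells of the control pools and to 261 and 540 CPM in those of the Runx1::Runx1t1 pools, and most of it was Cpa3, a mast cell protease gene (235 and 487 CPM against 0.234 and 0.472). All 8 genes had UMIs in both Runx1::Runx1t1 pools and in control replicate 1, while Ms4a2 and Fcer1a were at 0 in control replicate 2. Among T cells, those with 2 or more genes of the list held Il1rl1 in 82 of 320 cells (25.6%), and those with fewer in 760 of 49617 (1.53%). The T cells with fewer than 2 held it in 0.653% and 0.617% in the control pools and in 388 of 12933 cells and 1.78% in the Runx1::Runx1t1 pools, so the pools kept their order there.

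**Figure D4:**
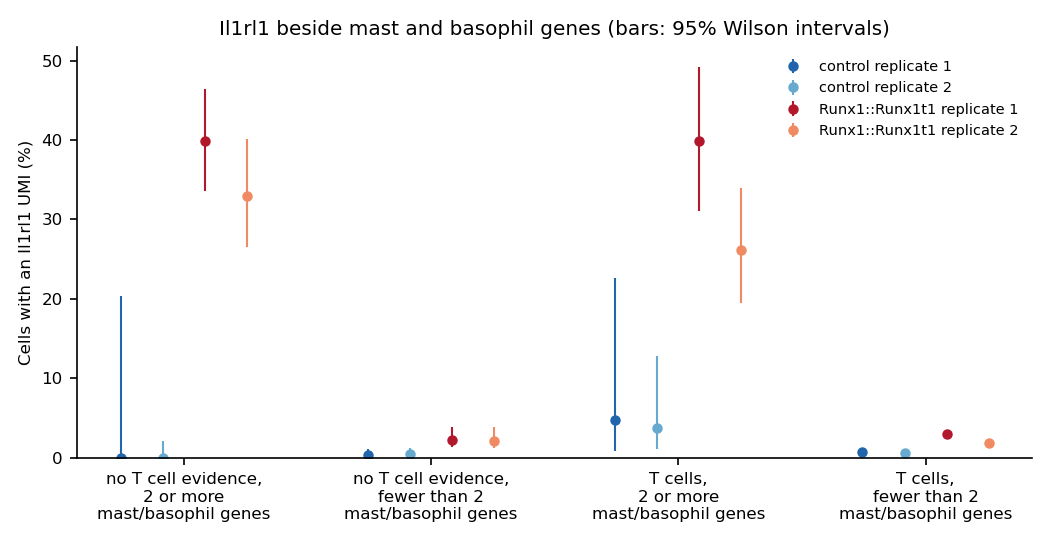
Points give the percent of cells with an Il1rl1 UMI per pool, with 95% Wilson intervals, in cells without T cell evidence and in T cells, each split by whether 2 or more of the 8 mast and basophil genes had a UMI. In cells without T cell evidence and with 2 or more of these genes the share was 39.8% and 33.0% in the Runx1::Runx1t1 pools and 0 in both control pools.

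The groups were then compared over pools, with the UMIs of each gene summed per pool and class and tested by edgeR's quasi-likelihood test with Benjamini-Hochberg adjustment over all genes of that class. The members were chosen with such results known, so their calls are no independent evidence. In all, 15 tests of members could be run. With n = 2 pools per group the p-values measure the spread between pools, and for these sums fewer positive cells and less RNA per cell cannot be told apart.

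In all T cells, 3 of the 4 members tested were higher in the Runx1::Runx1t1 group, where 4.53% of 14496 genes were called, 2.56% higher and 1.97% lower. Il13 was at 0.126 and 0.201 CPM in the control pools and at 1.21 and 2.65 CPM in the Runx1::Runx1t1 pools. The log2 fold change was 3.48 ± 0.49 (SE), or 11.2-fold, with an adjusted p of 0.0312 in edgeR. Without the 3 cells with the most Il13, it was 2.44 with an adjusted p of 0.0548 in edgeR, no longer under 0.05. With 1 pool left out at a time, among them the pool with these 3 cells, it was 2.86 to 3.92. Il1rl1 was at 1.38 and 1.19 CPM in the control pools and at 8.23 and 4.52 CPM in the Runx1::Runx1t1 pools. Its log2 fold change was 2.27 ± 0.34, or 4.84-fold (adjusted p = 0.0331 in edgeR), and 1.86 (adjusted p = 0.0502) once cells with markers of other cell types were left out.

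Gata3 rose by less, from 52.1 and 48.3 CPM in the control pools to 68.0 and 68.5 CPM in the Runx1::Runx1t1 pools. The log2 fold change was 0.40 ± 0.06, or 1.32-fold, with an adjusted p of 0.0341 in edgeR, and the pools of the groups did not overlap. Without cells that held Foxp3 it was 0.25 with an adjusted p of 0.0839. Il4 was at 4.86 and 4.91 CPM in the control pools and at 7.41 and 3.72 CPM in the Runx1::Runx1t1 pools, which lay on either side of the controls (0.15 ± 0.34, adjusted p = 0.809). Each of the 3 calls in all T cells was lost when either control pool was left out (adjusted p from 0.104 to 0.141), and that of Gata3 also without Runx1::Runx1t1 replicate 1 (0.0595).

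In co-receptor-negative cells, 2 of the 4 members tested were higher, where 7.26% of 12646 genes were called, 4.69% higher and 2.57% lower. Il1rl1 was at 1.52 and 1.38 CPM in the control pools and at 17.8 and 13.4 CPM in the Runx1::Runx1t1 pools. Its log2 fold change was 3.35 ± 0.22, or 10.2-fold (adjusted p = 0.00107 in edgeR). It was called under each of the 14 alternatives tried, with values from 2.87 to 3.72, among them 2.88 without cells that carry markers of other cell types and 3.72 without cells that held Foxp3. No alternative left out both of these sets of cells at once. Gata3 was at 59.2 and 54.3 CPM against 88.8 and 90.9 CPM, with a log2 fold change of 0.58 ± 0.07, or 1.49-fold (adjusted p = 0.00543 in edgeR). Without cells that held Foxp3 it was 0.31 with an adjusted p of 0.0826. Il4 (3.08 and 2.60 CPM against 6.00 and 4.72) and Il13 (0.0780 and 0.118 against 0.571 and 0.751) had pools that did not overlap, with adjusted p of 0.0881 and 0.0687 in edgeR.

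In Cd4 cells none of the 4 members tested was called by edgeR at an adjusted p under 0.05, where 1.94% of 11557 genes were, 1.29% higher and 0.649% lower. Unadjusted, Il13 alone had a p under 0.05 (0.0176). Its log2 fold change was 2.72 ± 0.88 (adjusted p = 0.175), with 0 and 5 UMIs in the control pools and 60 and 29 in the Runx1::Runx1t1 pools. Among Cd4 cells without Foxp3, where the control pools held 0 and 2 Il13 UMIs, it was 3.95 ± 0.90 (adjusted p = 0.0654). Il4 was at 2.03 and 8.09 CPM against 15.2 and 5.81 CPM (1.11 ± 0.64, adjusted p = 0.407), and Il1rl1 at 9.62 and 9.28 CPM against 22.0 and 9.96 CPM (0.81 ± 0.39, adjusted p = 0.331), where Runx1::Runx1t1 replicate 1 stood above the other 3 pools in both genes. Gata3 was at 125 and 104 CPM against 147 and 118 CPM (0.27 ± 0.13, adjusted p = 0.345). Among Cd4 cells with Foxp3 alone, Gata3 had a log2 fold change of 0.67 ± 0.15 (adjusted p = 0.115, where 0.128% of genes were called), and among those without Foxp3 it was 0.07 ± 0.13 (adjusted p = 0.805, where 2.95% were called). The difference between these 2 values was not tested. Il1rl1 was at 0.81 ± 0.29 (adjusted p = 0.338) in the cells with Foxp3 and at 0.997 ± 0.69 (adjusted p = 0.465) in those without, and Il4 at 1.04 ± 0.62 (adjusted p = 0.392) in those without.

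With each TRAV11-TRAJ18 cell thinned to 2000 UMIs, the share with Gata3 was 24.3% and 20.9% in the control pools and 20.2% and 19.1% in the Runx1::Runx1t1 pools, which turned the direction seen in whole cells. In TRAV11-TRAJ18 cells no member was called among the 3 tested, where 0.655% of 9624 genes were, 0.395% higher and 0.26% lower. Il4 was at 85.0 and 89.7 CPM in the control pools and at 97.7 and 76.5 CPM in the Runx1::Runx1t1 pools (0.07 ± 0.12, adjusted p = 0.930 in edgeR). Gata3 was at 126 and 106 CPM against 103 and 119 CPM (-0.05 ± 0.11, adjusted p = 0.943). Il13 had 8 and 9 UMIs against 25 and 5 (1.22 ± 0.49, adjusted p = 0.472, unadjusted p = 0.0277), and 16 of the 25 came from 1 cell.

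**Figure D5:**
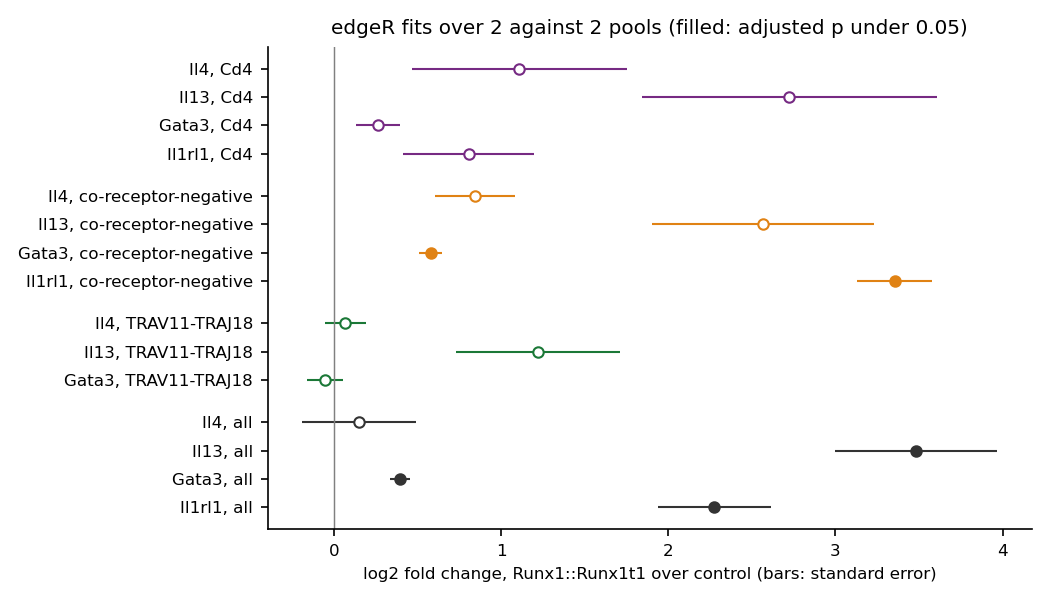
Points are the log2 fold changes of Runx1::Runx1t1 over control for the 15 tests of members, with standard errors as bars, from edgeR fits over 2 against 2 pools, and filled points have an adjusted p under 0.05. Filled points are Gata3 and Il1rl1 in co-receptor-negative cells and Il13, Gata3 and Il1rl1 in all T cells.

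Other genes of the type 2 program were followed as lists, whose counts stand beside the shares of all genes called, 7.26% in co-receptor-negative cells, 4.53% in all T cells, 1.94% in Cd4 cells and 0.655% in TRAV11-TRAJ18 cells. Several counts are of 1 or 2 genes. The make-up of co-receptor-negative cells differed by pool. Foxp3 was found in 4.32% and 5.41% of them in the control pools and in 16.9% and 14.2% in the Runx1::Runx1t1 pools. Klrb1c, a marker of natural killer-like T cells, was in 13.8 to 44.4% by pool. Those with Trdc and no beta contig numbered 940 and 852 against 360 and 224. For genes of the lists no value without Foxp3 cells is given, and the part of this make-up in their calls was not tested. Of 16 tested transcription factors known to act with Gata3, 8 were higher and none lower in co-receptor-negative cells (median log2 fold change 0.42, against -0.0023 over all genes). Rora, a factor of innate lymphoid and tissue regulatory T cells, rose by 1.40 on the log2 scale, Maf, an activator of Il4, by 1.34 and Pparg by 2.93. The others were Irf4, Batf, Stat5a, Stat5b and Zbtb7b. In all T cells 5 of 17 were higher (Maf, Irf4, Batf, Rora and Pparg), in Cd4 cells 1 of 16 was lower (Satb1, fell by 0.52), and in TRAV11-TRAJ18 cells 1 of 15 was higher (Nfil3, rose by 0.85).

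Of the other cytokine genes linked to type 2 responses, 2 of 4 tested were higher in co-receptor-negative cells. Il10 was at 1.91 and 1.46 CPM in the control pools and at 16.2 and 16.2 CPM in the Runx1::Runx1t1 pools, and Areg at 11.9 and 11.3 against 64.0 and 67.8 CPM. In TRAV11-TRAJ18 cells Areg was called with no UMI in either control pool and 14.4 and 6.09 CPM in the Runx1::Runx1t1 pools, and no fold is given. Of the receptors of type 2 cytokines and alarmins, 2 of 10 tested were higher in co-receptor-negative cells, where 7.26% of all genes were called (Il2ra, rose by 1.16, and Il9r, by 1.59). The T helper 2 homing receptor genes Ccr8 and Ccr3 rose by 2.20 and 2.64 there, 2 of 4 tested. No gene of these 3 lists was called in Cd4 cells.

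A list of genes taken as opposing Gata3 or Il4 had calls in both directions in co-receptor-negative cells, against 7.26% of all genes called there and 1.94% in Cd4 cells. In co-receptor-negative cells Tbx21, the factor of T helper 1 cells, fell by 0.80 and Runx1 rose by 0.60, 2 of 10 tested. Runx1 is also the gene into which the fusion was knocked in, and whether its counts include fusion transcripts was not tested. Over all kept cells Runx1 had 6593 and 7651 UMIs in the control pools and 9491 and 8623 in the Runx1::Runx1t1 pools. In Cd4 cells Eomes and Runx3, factors of cytotoxic cells, rose by 2.60 and 0.80, and Sh2d1a by 0.65, 3 of 10 tested. Sh2d1a encodes the adaptor SAP, which is known to support Il4 production and invariant natural killer T cells, so its place in this list is in error and it does not count as an opposing gene. Among 5 neighbors of Il1rl1 on chromosome 1, Il1r2 rose by 1.98 and Il18r1 fell by 0.58 in co-receptor-negative cells. Of 4 neighbors of the cytokine locus, 1 was higher there (Sept8, rose by 1.09). Of the 6 regulatory T cell markers, 5 were higher in the same cells, Foxp3 by 2.22 and Ctla4 by 2.26. The values of Gata3 and Il1rl1 without cells that held Foxp3 stand beside their results above.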

How the data were processed

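The 4 gene expression and 4 TCR libraries were made from pools of cells and processed by the authors with Cell Ranger 6.1.2 on GRCm38. The annotation release and strand setting are not given in the sources used here. The authors deposited raw UMI counts per gene and cell, not normalized, and lists of TCR contigs.

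Barcodes under 200 genes or over 15% mitochondrial UMIs were dropped, and Scrublet (expected rate 0.05) removed 5.04 to 5.38% of barcodes as doublets. In 3 libraries its automatic threshold marked under 0.5%, and the top 5% of scores were removed instead. Classes were assigned in the order TRAV11-TRAJ18 contig, no T cell evidence, Cd4, Cd8, both and neither co-receptor, by any UMI. Counts were summed per pool and class and tested with edgeR 4.0.16 (R 4.3.3), with DESeq2 1.42.0 as an alternative. Standard errors are the fold change on the log2 scale divided by the square root of the F statistic of its test. Other values were computed with Python 3.11.15, scanpy 1.11.5 and SciPy 1.17.1. The edgeR step was tested on simulated data. An upper limit for 0 cells is 3 counts.

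Members and lists were chosen with earlier results of these data known. The values of members were given first, then list genes by counts with those that passed, clonotypes with 2 or more positive cells, and the 5 genes most like a member. Marker genes set beside positive and negative cells were picked after their values were seen. Nothing states whether mice were assigned to pools independently, so the p-values measure the spread between pools. The pools are too few for a share to pass a permutation test. Alternatives tried are another normalization, filter, doublet setting and replicate set, thinning, clonotypes counted once, a replicate block and fits without other cell types. Fits split by Foxp3, without Foxp3 cells or without the cells with the most Il13 were added after the data were seen.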

Additional observations from a re-analysis of the deposited data

Results flagged for a closer look

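Il1rl1 stood out in the cells without T cell evidence, which no comparison between groups used. It was found in 98 of 754 (12.997%) and 70 of 652 (10.7%) of these cells in Runx1::Runx1t1 replicates 1 and 2, and in 2 of 654 (0.306%) and 3 of 927 (0.324%) in control replicates 1 and 2. The signal lay above the level in the control pools. The positive cells had a median of 9589 UMIs against 1264 in the others, and Cpa3 was found in 89.0% of them against 16.0%, and Ms4a2, a chain of the IgE receptor of mast cells and basophils, in 31.2% against 0.711%. The mast and basophil list summed to 6196 and 5497 CPM in these cells of the Runx1::Runx1t1 pools, with Prss34 at 0, and to 53.8 and 265 CPM in the control pools. Cells with 2 or more genes of the list numbered 216 and 182 in the Runx1::Runx1t1 pools and 15 and 179 in the control pools, where none held Il1rl1. Among these cells Cpa3 was found in 99.5% and 99.5% against 13.3% and 17.9%, and Ms4a2 in 14.8% and 21.4% against 0 and 0.559%. Other genes of the list were less frequent in the Runx1::Runx1t1 pools or overlapped, with Gata2 in 75.9% and 69.2% against 86.7% and 93.3%, Kit in 90.3% and 87.4% against 100% and 97.2%, and Mcpt8 in 9.26% and 5.49% against 0 and 7.82%. Outside the list, Mpo, a gene of immature myeloid cells, was found in 80.6% and 70.3% against 80.0% and 51.4%. Cd34, a progenitor gene, was found in 80.1% and 80.8% against 93.3% and 92.7%. The mast cell protease gene Mcpt1 was found in none of these cells, and Mcpt4 in 0.463% of those of Runx1::Runx1t1 replicate 1 alone. Genes of the list therefore do not name these cells as mast cells or basophils.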

How the results depend on the processing

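Among 199 fold changes of members under alternatives, 178 kept direction and side of the threshold, as did 192 of 200 share differences in direction. The counts of genes called were 224 (Cd4), 918 (co-receptor-negative), 63 (TRAV11-TRAJ18) and 657 (all T cells). Without the low-count filter they were 370, 556, 223 and 342. DESeq2 called 34 in TRAV11-TRAJ18 and 1617 in all T cells. Leaving out 1 pool gave 61 to 198, 609 to 1238, 76 to 135 and 49 to 1609 in the same order, so the count for all T cells depends on the pool left out (49 without control replicate 1, 113 without control replicate 2 and 1609 without Runx1::Runx1t1 replicate 1). Co-receptor-negative cells gave 1441 without other cell types and 1504 with a TRB contig. In alternatives chosen after seeing the data, Cd4 cells with Foxp3 gave 12, and co-receptor-negative cells gave 387 without Foxp3 cells. The cause of these moves was not tested.

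With the replicate number as a block the counts were 503, 1623, 200 and 1770. Deviations of same-numbered pools correlated at 0.195, 0.299, 0.168 and 0.250, but the 2 pairs share only a number. In this fit Il4 (0.83, adjusted p = 0.0487 in edgeR) and Il13 (2.59, 0.0438) were called in co-receptor-negative cells.

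Directions turned as follows. With 1 pool left out, the log2 fold change of Il4 was -0.19 (without Runx1::Runx1t1 replicate 1) to 0.22 in TRAV11-TRAJ18 cells and -0.48 (without the same pool) to 0.59 in all T cells. That of Gata3 in TRAV11-TRAJ18 cells was -0.15 to 0.065 (without control replicate 1), and 0.00052 with doublets kept. The share difference of Il4 in all T cells (-0.0201 percentage points) was 0.0161 for at least 2 UMIs, 0.201 with each clonotype counted once and -0.698 to 0.657 with 1 pool left out. In TRAV11-TRAJ18 cells it was -1.003 for Il4 and -2.95 for Gata3 after thinning, -0.0643 for Il13 at 2 or more UMIs, and -1.08 to 3.30 for Il4 with 1 pool left out. For Il4 in Cd4 cells it was -0.101 to 2.14 with 1 pool left out. Il1rl1 in Cd4 cells was called without Runx1::Runx1t1 replicate 2 (1.28, adjusted p = 0.0292 in edgeR), as was Il4 in co-receptor-negative cells (1.02, 0.0451), and Gata3 in all T cells was not without the low-count filter (0.0540). Il5 had too few counts to pass the low-count filter of the main fits, and no value without this filter is given.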

Other observations

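Genes with a pattern most like that of each member were looked up over 24 sums (4 pools in 6 classes), as Pearson's r of log2(CPM + 1) among 12067 genes. The sums of a pool share a library, so r is a description. Il4 was most like Bcap31 (0.93), Socs2 (0.93), Atp8a2 (0.92), Dusp1 (0.91) and Rcbtb2 (0.91). Gata3 was most like Ndfip1 (0.98), Dennd1c (0.98), Tnfrsf18 (0.98), Arf6 (0.96) and H2-D1 (0.96), and Il1rl1 most like Ecm1 (0.96), Wnk1 (0.92), Ccr3 (0.91), Atp9b (0.91) and Serpinb6a (0.89). For Il13 the highest was Epas1 (0.80), and for Il5, with 20 UMIs, Gcg (0.74).

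Within TRAV11-TRAJ18 cells thinned to 2000 UMIs, Cxcr6, a chemokine receptor gene of resident T cells, was more frequent in Il4-positive cells than in Il4-negative ones by a mean of 18.3 percentage points over pools (12.7 to 21.8), and Ckb by 17.4 (8.54 to 23.9). In Cd4 cells Id2 was more frequent in Il4-positive cells by a mean of 30.7 (18.4 to 39.2) and Ctsw by 28.2 (9.93 to 56.1). In the 43 Il13-positive Cd4 cells of 3 pools, Id2 was found in 90.7% against 51.5% of the negative cells (by pool, 34.8 to 58.6 points higher) and Gata3 in 41.9% against 20.3% (9.76 to 82.2 points higher). The cell with the most Gata3 (28 UMIs) was a Cd4 cell with Foxp3 in Runx1::Runx1t1 replicate 1. Its clonotype (TRAV9-1 and TRAJ31 with TRBV5 and TRBJ2-4) had 10 cells with 80 Gata3 UMIs, of which 9 held Foxp3 and 5 Il1rl1.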
